A study of Arabidopsis thaliana with 38 samples.

Results

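SCL23 (SCARECROW-LIKE 23, AT5G41920) is a protein-coding gene on chromosome 5 of Arabidopsis thaliana. It was read by the probe set annotated to that gene alone, 1 of 22746 probe sets of the array that are not controls. RNA of roots of 5-day seedlings had been measured on 38 single-colour ATH1 arrays in 13 groups. In the C24 ecotype, 30 arrays in 10 groups of 3 held cells sorted for J0571, which marks ground tissue, the cortex and endodermis. Of these, 8 groups were labelled by a one-cycle protocol: lines in the SHR background in which a UAS construct, the response element of a GAL4 driver, carried BLJ, NUC, MGP, JKD, SCR or IME (UAS-BLJ to UAS-IME), the SHR line without a construct, and wild type (WT). Further SHR and WT arrays, with replicate numbers of their own, were labelled by a two-cycle protocol. Protocol and set of samples therefore differ together and cannot be told apart. In the Columbia ecotype there were 3 arrays of dissected meristems labelled BLJ, 2 of WT meristems and 3 of WT cells sorted by the cortex marker CO2, which the titles place in the meristematic zone. The labels give SHR and BLJ as genotypes and do not state that they are mutants. They call the arrays biological replicates but name no separate cultures, so p-values cover the spread between these samples only.

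GRAS proteins are plant transcriptional regulators. SHR is a GRAS protein made in the stele that moves into the adjacent cell layer, where it acts with SCR, another GRAS protein, to set off the division that separates endodermis from cortex and to specify the endodermis. SCL23 is a close relative of SCR and takes part with it in endodermis specification. The BIRD proteins, among them JKD, MGP, NUC, BLJ and IME, are zinc finger factors that act with SHR and SCR.

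The signal of SCL23 lay between 16.9 and 106.3 in MAS5 intensity units, a linear scale on which each array had been brought to the same trimmed mean. It was above the median of all probe sets on 7 of the 38 arrays, 3 of UAS-MGP, 2 of UAS-SCR, 1 of UAS-BLJ and 1 of CO2 cells. The 40th percentile of all values lay at 46.0 on the 24 one-cycle J0571 arrays, and 5 of these arrays had SCL23 below it. In the 6 two-cycle arrays the 40th percentile was 53.7, with SCL23 below it in 5. Bulk arrays of sorted cells cannot tell fewer cells of a type apart from less RNA per cell.

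UAS-MGP had the highest mean SCL23 signal of the 13 groups, with 106.3, 94.4 and 105.1 on its 3 arrays. UAS-SCR followed with 105.1, 81.6 and 91.6. Every array of these lines lay above every array of the SHR line and of WT under either protocol. The values in UAS-BLJ were 78.4, 86.9 and 64.7. UAS-IME had 69.9, 71.6 and 86.4. The line labelled UAS-JKD had 67.9, 70.9 and 56.8. These 3 lines overlapped the SHR line, which had 62.9, 70.1 and 49.8 in the one-cycle set. UAS-NUC was the exception among the lines, with 21.8, 38.6 and 34.9, all below the lowest SHR array. WT was the most dispersed group, with 16.9, 64.7 and 35.2, so that its SD on the log2 scale, 0.65, exceeded that of each of the other 12 groups.

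Outside the one-cycle J0571 set, the two-cycle SHR arrays had 31.4, 20.0 and 44.9, against 41.2, 33.0 and 64.2 in two-cycle WT. Meristems labelled BLJ had 66.5, 98.1 and 104.8, against 28.8 and 31.1 in WT meristems. CO2 cells had 63.5, 46.3 and 54.7. CO2 cells lay above both WT meristem arrays and overlapped WT ground tissue.

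**Figure D1:**
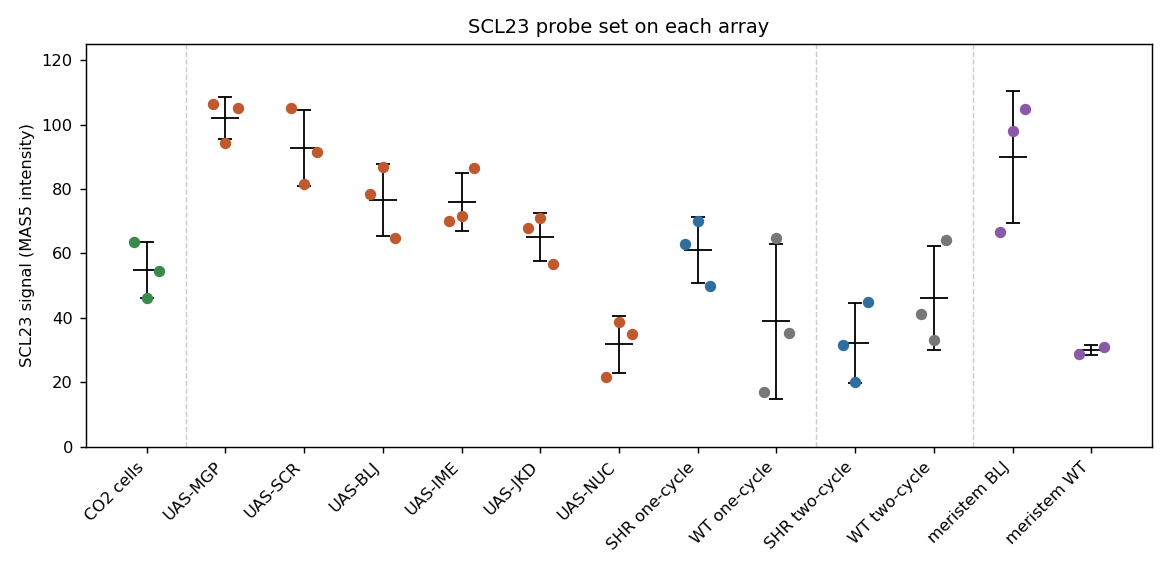
SCL23 signal (MAS5 intensity, linear axis from 0) in the 13 groups. Points are arrays and horizontal bars with whiskers are the mean and SD; UAS-MGP and UAS-SCR lie highest, and UAS-NUC is the one line below the SHR line.

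Ordered by the mean of log2(signal + 16), the 8 one-cycle J0571 groups ran UAS-MGP (6.88), UAS-SCR (6.76), UAS-BLJ (6.53), UAS-IME (6.52), UAS-JKD (6.34), SHR (6.26), WT (5.68) and UAS-NUC (5.56). All 28 pairs of these groups were compared in 1 limma model on the 24 arrays, with p-values adjusted by Benjamini-Hochberg over all 15777 probe sets tested and called under 0.05. None of the 7 pairs of neighbours in the order was called, and 1 of them, SHR against WT, had an unadjusted p under 0.05. Of all 28 pairs, 11 were called, and each of the 11 held WT or UAS-NUC. Among the 15 pairs of the other 6 groups none was called, with 3 at an unadjusted p under 0.05.

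The question of whether SHR and WT differed in SCL23 was asked under both protocols. In the one-cycle set SCL23 averaged 61.0 ± 10.3 in SHR and 38.9 ± 24.1 in WT (SD, n = 3 each). The difference was 0.57 ± 0.23 (SE) on the log2(signal + 16) scale, which understates changes of low signals, with a 95% confidence interval of 0.10 to 1.05. It was not called (limma adjusted p = 0.0569), in a comparison where 34.5% of the probe sets tested were called, and the groups overlapped. The value moved either way with single WT arrays. Without WT replicate 2_1, the lowest at 16.9, the difference was 0.25 (limma adjusted p = 0.411), and without WT replicate 2_2, the highest at 64.7, it was 0.90 and called (limma adjusted p = 0.00237).

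In the two-cycle set SCL23 averaged 32.1 ± 12.5 in SHR and 46.1 ± 16.2 in WT (SD, n = 3 each). The difference was -0.37 ± 0.31 (SE), opposite in sign to the one-cycle set. The probe set did not reach the level required for testing there. With no filter its limma adjusted p was 0.435, in a fit that called 17.1% of all probe sets. The difference between the protocols (two-cycle minus one-cycle) was -0.94 ± 0.46 (SE), with a limma adjusted p of 0.122 where 36.6% were called. Without WT one-cycle replicate 2_1 it was -0.62 (limma adjusted p = 0.284), and without WT one-cycle replicate 2_2 it was -1.27 and called (limma adjusted p = 0.0392).

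Controls of RNA quality differed between the groups in part. The log2 ratio of the 3' to the 5' actin control probe set averaged 2.78 in SHR and -2.47 in WT in the two-cycle set, and 0.94 in SHR and -0.35 in WT in the one-cycle set. A second pair of actin controls on the same array gave 3.22 in two-cycle SHR and 0.07 in two-cycle WT, and 4.06 in one-cycle SHR and 1.78 in one-cycle WT. The actin ratio was higher in SHR by both pairs and under both protocols, while its size depended on the pair. The GAPDH ratios were higher in SHR in the two-cycle set alone, at 2.50 in SHR and -0.02 in WT (second pair 0.81 in SHR and 0.09 in WT). In the one-cycle set they were -0.05 in SHR and 0.27 in WT (second pair -0.09 in SHR and -0.04 in WT). Their part in the SCL23 differences was not tested.

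UAS-NUC was the only line in which the SCL23 difference from the SHR line was called. It averaged 31.7 ± 8.84 in UAS-NUC and 61.0 ± 10.3 in SHR (SD, n = 3 each), lower in all 3 arrays. The difference was -0.70 ± 0.23 (SE), with a confidence interval of -1.17 to -0.22 and a limma adjusted p of 0.0203. In that comparison 40.7% of all probe sets tested were called, and 20.6% were called lower. The call was lost without UAS-NUC replicate 1 (-0.54, limma adjusted p = 0.123) and without SHR replicate 2_2 (-0.61, limma adjusted p = 0.0818).

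SCL23 in the other lines was not called against SHR. In UAS-MGP it averaged 101.9 ± 6.56, against 61.0 ± 10.3 in SHR (SD, n = 3 each). That difference was 0.62 with an interval of 0.15 to 1.10 and a limma adjusted p of 0.0926, where 9.07% of probe sets were called. In UAS-SCR it averaged 92.8 ± 11.8, a difference from SHR of 0.50 with an interval of 0.03 to 0.98 and a limma adjusted p of 0.0739, where 47.7% were called. Neither of these lines overlapped SHR. The unadjusted limma p was 0.0125 in UAS-MGP and 0.0390 in UAS-SCR, against 0.00597 in UAS-NUC. The UAS-MGP and UAS-SCR differences became calls in a fit on 21 arrays without WT (limma adjusted p = 0.0266 in UAS-MGP and 0.0206 in UAS-SCR), a setting chosen after the values were seen.

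The remaining lines overlapped SHR. The difference from SHR was 0.27 in UAS-BLJ (interval -0.21 to 0.74, limma adjusted p = 0.537, 11.1% called). It was 0.26 in UAS-IME (interval -0.21 to 0.74, limma adjusted p = 0.435, 21.1% called). In the line labelled UAS-JKD it was 0.08 (interval -0.39 to 0.56, limma adjusted p = 0.782, 46.2% called). The intervals leave room for a change of up to 0.74 on this scale in UAS-BLJ and UAS-IME.

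The low end of the array signal differed between some of these groups. The 10th percentile of all signals was 8.1 to 10.2 in UAS-NUC and in every other line but UAS-BLJ, against 3.0 to 4.0 in UAS-BLJ, SHR and WT. The comparisons of these 5 lines with SHR and with WT cross that difference, and line and low end cannot be told apart in them. UAS-NUC shares its low end with the other 4 lines, and SCL23 was lower in UAS-NUC than in each of them. RNA controls differed between the lines too. The 3' to 5' GAPDH log2 ratio was -0.05 in SHR and 0.02 in UAS-BLJ. It was 0.51 in UAS-IME, 0.71 in UAS-NUC, 0.91 in UAS-MGP, 1.22 in UAS-JKD and 1.40 in UAS-SCR. The second GAPDH pair lay between -0.09 in SHR and 0.31 in UAS-JKD. For actin 1 pair gave 2.38 in UAS-MGP, 3.87 in UAS-NUC, 4.06 in SHR and 4.98 in UAS-JKD. The part of these ratios in the line differences was not tested.

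Against UAS-MGP the UAS-NUC difference was -1.32 (limma adjusted p = 0.000509, 29.4% of probe sets called) and against UAS-SCR it was -1.20 (limma adjusted p = 0.000887, 15.2% called). Against UAS-IME it was -0.96 (limma adjusted p = 0.0102, 8.08% called). Against the line labelled UAS-JKD it was -0.78 (limma adjusted p = 0.0257, 13.7% called), and against UAS-BLJ, which has the other low end, -0.97 (limma adjusted p = 0.00316, 32.4% called). No array of UAS-NUC reached the lowest array of any other line. In a fit on the 15 arrays of the 5 lines of like low end alone, chosen after the values were seen, SCL23 was again called lower in UAS-NUC than in the other 4. The limma adjusted p was 0.000437 against UAS-MGP (16.8% of probe sets called), 0.000416 against UAS-SCR (10.9% called), 0.00495 against UAS-IME (5.21% called) and 0.0124 against the line labelled UAS-JKD (9.06% called). Each comparison was repeated without each of its 6 arrays. The calls against UAS-MGP, UAS-SCR and UAS-BLJ remained in all 6 repeats. Without UAS-NUC replicate 1 the call against UAS-IME was lost (-0.80, limma adjusted p = 0.0724), as it was without UAS-IME replicate 3 (-0.88, limma adjusted p = 0.0597). Without UAS-NUC replicate 1 the call against UAS-JKD was lost too (-0.62, limma adjusted p = 0.115), and it was also lost without UAS-JKD replicate 1 (-0.75, limma adjusted p = 0.0724) or 2 (-0.73, limma adjusted p = 0.0868).

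Against WT, SCL23 was called higher in 5 of the 6 lines. The difference was 1.20 in UAS-MGP (limma adjusted p = 0.000446, 33.6% of probe sets called) and 1.07 in UAS-SCR (limma adjusted p = 0.000958, 36.6% called). It kept its call in these lines without any 1 of the 6 arrays, and no array of either line overlapped WT. It was 0.84 in UAS-BLJ (limma adjusted p = 0.00635, 35.0% called) and 0.83 in UAS-IME (limma adjusted p = 0.00868, 27.5% called). Without WT replicate 2_1, the lowest array, both lost the call, at 0.52 in UAS-BLJ (limma adjusted p = 0.0668) and 0.51 in UAS-IME (limma adjusted p = 0.0831).

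In the line labelled UAS-JKD the difference from WT was 0.65 (limma adjusted p = 0.0338, 31.3% called). That call was lost without UAS-JKD replicate 1 (0.63, limma adjusted p = 0.0807) or 2 (0.60, limma adjusted p = 0.0958), and without WT replicate 2_1 (0.33, limma adjusted p = 0.233) or 2_3 (0.65, limma adjusted p = 0.0763). UAS-NUC differed from WT by -0.13 (interval -0.60 to 0.35, limma adjusted p = 0.730, 23.8% called). These comparisons share the 3 WT arrays, and those with SHR share the 3 SHR arrays.

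**Figure D2:**
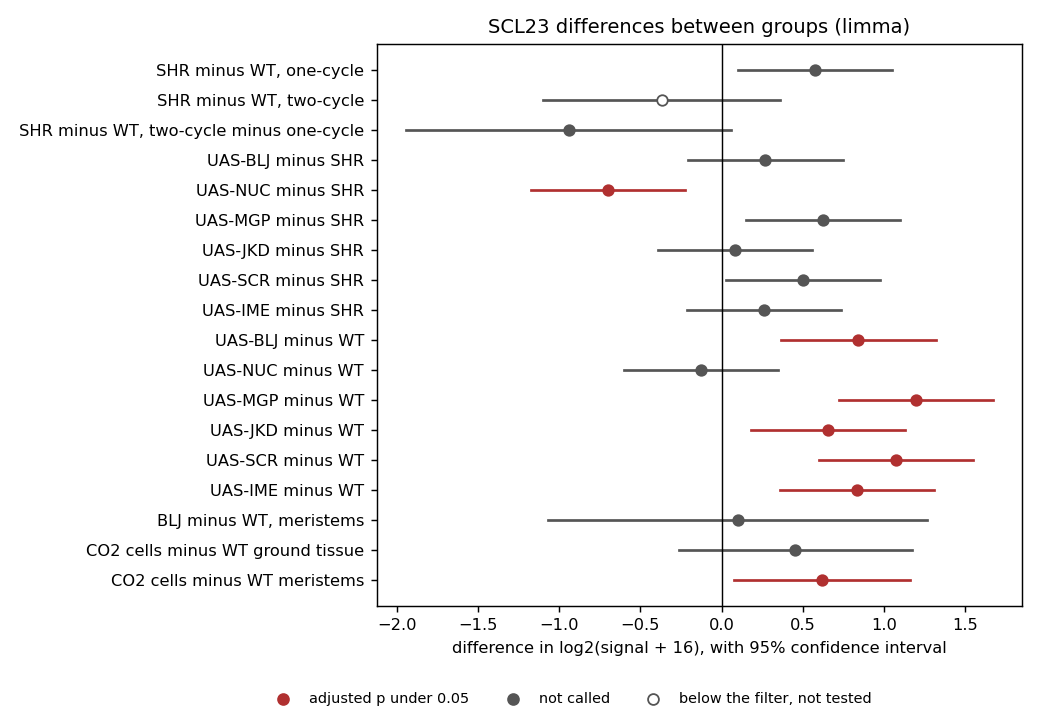
Differences in SCL23 on the log2(signal + 16) scale (points) with 95% confidence intervals (lines) for the 18 comparisons. Red marks an adjusted p under 0.05 and the open point a comparison in which SCL23 was below the filter; UAS-NUC minus SHR, at -0.70, is the one called difference below 0.

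In meristems the size of the SCL23 difference depended on the scaling of the arrays. As deposited, the signal averaged 89.8 ± 20.4 in meristems labelled BLJ (SD, n = 3) and 30.0 ± 1.58 in WT meristems (SD, n = 2). The median log2 signals of these 5 arrays spanned 1.27, so they were quantile normalised. SCL23 then had 74.0, 64.4 and 49.6 in BLJ and 53.7 and 60.2 in WT. The groups overlapped after this step, and the difference was 0.10 ± 0.49 (SE), with a limma adjusted p of 0.912 where 2.72% of probe sets were called. On the deposited values it was 1.18 with a limma adjusted p of 0.185. Without BLJ replicate 1 the normalised difference was -0.01.

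The RNA controls of these meristem arrays differed too. The log2 ratio of 3' to 5' GAPDH averaged 7.25 in BLJ and 3.51 in WT, and by the second pair 3.63 in BLJ and 1.53 in WT. In BLJ replicates 1, 2 and 3 it was 4.17, 8.49 and 9.09, in the order of their deposited SCL23 signals. The second GAPDH pair shared that order. The actin pair that averaged 5.04 in BLJ ran in the reverse order, and the actin pair that averaged 5.39 in neither. The actin pairs did not share a direction, with 5.04 in BLJ and 6.32 in WT by one and 5.39 in BLJ and 4.13 in WT by the other. The part of these differences in the SCL23 values was not tested.

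CO2 cells averaged 54.8 ± 8.59 (SD, n = 3) in SCL23 signal. Against WT ground tissue the difference was 0.45 (interval -0.26 to 1.17, limma adjusted p = 0.242), where 57.3% of probe sets were called. Without WT replicate 2_1 it was 0.13 (limma adjusted p = 0.708), and without WT replicate 2_2 it was 0.78 and called (limma adjusted p = 0.0478). Ecotype, zone and marker differ together there and cannot be told apart. The 3' to 5' GAPDH log2 ratio was 2.86 in CO2 cells and 0.27 in WT ground tissue (second pair 0.76 in CO2 cells and -0.04 in WT). For actin it was 6.72 in CO2 cells and 1.78 in WT ground tissue (second pair 3.08 in CO2 cells and -0.35 in WT). The part of these ratios was not tested. Sorting and tissue differ together between CO2 cells and WT meristems and cannot be told apart either. Against WT meristems SCL23 was higher in CO2 cells by 0.62 ± 0.24 (SE), called at a limma adjusted p of 0.0426, where 72.5% of all probe sets were called. That call was lost without CO2 replicate 1 (0.53, limma adjusted p = 0.0999) or 3 (0.61, limma adjusted p = 0.0775), and without WT meristem replicate 1 (0.58, limma adjusted p = 0.180) or 2 (0.65, limma adjusted p = 0.136), where 1 WT array is left and is taken to vary like the CO2 group.

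Markers of the sorted layers differed between the groups. Of 14 endodermis markers 4 were measured, and their summed signal per array was 1198 to 1652 in SHR and 4580 to 6533 in WT of the one-cycle set. Of the 4, 3 were called lower in SHR, among them GSO1, a receptor kinase of the Casparian strip barrier, at 281.2 in SHR and 1394 in WT. The other, AT4G28100, was called higher, at 734.8 in SHR and 386.7 in WT. Of all probe sets tested in this comparison, 17.0% were called lower in SHR and 17.5% higher. All 5 cortex markers were measured, and their sum was 3520 to 4052 in SHR and 1195 to 1690 in WT.

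The cortex sum was carried by 2 members called higher, AT1G62500 (1441 in SHR and 238.5 in WT) and AT1G62510 (1145 in SHR and 27.1 in WT). AT5G02000 was called lower, at 88.9 in SHR and 206.0 in WT, and the remaining 2 were not called. The shares of all probe sets were 17.5% called higher in SHR and 17.0% lower. In the two-cycle set the cortex sums overlapped, at 500 to 1707 in SHR and 1268 to 2375 in WT. The endodermis sum was 429 to 619 in two-cycle SHR and 3340 to 12918 in two-cycle WT.

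UAS-NUC, low in SCL23 like WT, had an endodermis sum of 1098 to 2072, which overlapped SHR and not WT, and a cortex sum of 1534 to 1994, which overlapped WT and not SHR. That endodermis sum joins members called in opposite directions against SHR. GSO1 was higher (795.7 in UAS-NUC and 281.2 in SHR) and AT4G28100 lower (291.2 in UAS-NUC and 734.8 in SHR). The shares of all probe sets there were 20.1% higher and 20.6% lower. UAS-MGP, highest in SCL23, had an endodermis sum of 818 to 1132, below SHR, and a cortex sum of 3216 to 3805, which overlapped SHR. UAS-SCR, next in SCL23, had an endodermis sum of 1635 to 2948, with 3 markers called higher than in SHR and 1 lower. All probe sets there were called higher at 25.1% and lower at 22.6%. The endodermis sum was 1882 to 2161 in UAS-IME, 1113 to 1280 in UAS-JKD and 1018 to 1121 in UAS-BLJ. The cortex sum was 5759 to 6594 in UAS-BLJ, 3447 to 4458 in UAS-SCR, 2375 to 3611 in UAS-JKD and 2263 to 3080 in UAS-IME. Among the one-cycle groups, WT and UAS-NUC were thus lowest both in the cortex sum and in SCL23. The highest cortex sum was that of UAS-BLJ, and the highest SCL23 that of UAS-MGP. These cortex sums join members called in opposite directions against SHR. In UAS-BLJ 2 were called higher and 2 lower (all probe sets 6.47% higher and 4.67% lower). AT1G09750 carried that sum, at 5316 in UAS-BLJ and 801.4 in SHR. AT1G62500 was lower, at 220.4 in UAS-BLJ and 1441 in SHR. In UAS-NUC 1 cortex marker was called higher and 2 lower. Of 6 epidermis markers 1 was measured, EXPA7, an expansin of root hairs, with 164.4 to 390.8 in UAS-SCR and 291.9 to 518.5 in UAS-JKD, against 22.3 to 61.6 in SHR. No vascular or columella marker had a named probe set. Against WT ground tissue, 2 cortex markers were called higher in CO2 cells, AT1G62510 (656.7 in CO2 cells and 27.1 in WT) and AT3G21670 (546.9 in CO2 cells and 207.8 in WT), and 3 lower, among them AT1G62500 (79.1 in CO2 cells and 238.5 in WT). All 4 endodermis markers were called lower in CO2 cells. In that comparison 57.3% of all probe sets were called, counting both directions. The part of these marker differences in the SCL23 levels was not tested.

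Other genes of the SHR pathway were set beside SCL23. Of a list of 19, 5 had a probe set named to 1 gene, and SHR and SCR were not among them. In SHR against WT (one-cycle), 4 were tested and 1 was called, against 34.5% of all probe sets. It was AT1G14580, entered in the list as BLJ, at 14.2 ± 9.10 in SHR and 195.8 ± 26.1 in WT (-2.85, limma adjusted p = 9.3e-06). The list's median difference was 0.31, against 0.07 for all probe sets. JKD, which encodes a BIRD zinc finger protein, was not called there, at 215.1 in SHR and 147.4 in WT. In the two-cycle set 3 were tested, with a median of -1.01 against -0.15 for all probe sets. SLY2, an F-box gene of gibberellin signalling, was called lower in SHR (-1.01, limma adjusted p = 0.0486), where 14.8% of all probe sets were. JKD had 126.9 in two-cycle SHR and 218.1 in two-cycle WT and was not called.

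AT1G14580, the list's entry for BLJ, was called against SHR in UAS-BLJ alone among the lines. That line is labelled as driving BLJ itself. The gene averaged 443.3 ± 40.1 in UAS-BLJ and 14.2 ± 9.10 in SHR (SD, n = 3 each, 3.97, limma adjusted p = 4.0e-07). JKD was called lower than in SHR in 5 of the 6 lines, with differences of -2.33 in UAS-BLJ, -1.50 in UAS-NUC, -0.75 in UAS-MGP, -0.96 in UAS-JKD and -2.55 in UAS-IME. Of all probe sets, 4.67% were called lower in UAS-BLJ, 20.6% in UAS-NUC, 3.76% in UAS-MGP, 22.8% in UAS-JKD and 7.94% in UAS-IME. The line labelled UAS-JKD thus read lower than SHR for JKD, at 102.0 ± 15.4 against 215.1 ± 41.2 in SHR (SD, n = 3 each, limma adjusted p = 0.00169). Where the probe set lies relative to the construct is not stated in these sources, so this does not check the label. TRI, annotated as a tropinone reductase, fell in 3 lines against SHR, with differences of -2.20 in UAS-NUC, -3.16 in UAS-JKD and -2.87 in UAS-SCR. All probe sets were called lower in these lines at shares of 20.6% in UAS-NUC, 22.8% in UAS-JKD and 22.6% in UAS-SCR. SLY2 was not called in any line against SHR.

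Of 31 other GRAS genes, 12 were measured and 8 tested in the 24 arrays. In SHR against WT (one-cycle) 1 was called higher and 2 lower, where 17.5% of all probe sets were called higher and 17.0% lower. SCL21, a relative of the light signalling gene PAT1, averaged 166.9 in SHR and 74.1 in WT (1.02). AT5G59450 averaged 165.5 in SHR and 512.9 in WT (-1.54), and AT3G46600 averaged 211.6 in SHR and 379.7 in WT (-0.78). The median of the 8 was 0.12. In the two-cycle set 9 were tested, none was called higher and 2 were called lower, where 28.8% of all probe sets were called, 13.9% higher and 14.8% lower. These were AT3G50650 (-0.97) and AT1G63100 (-0.77), with a median of -0.71 against -0.15 for all probe sets.

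In UAS-NUC, where SCL23 fell, 2 of the 8 GRAS genes were called higher than in SHR and 2 lower, where 20.1% of all probe sets were called higher and 20.6% lower. AT3G46600 rose to 486.4 ± 94.4 in UAS-NUC, against 211.6 ± 16.3 in SHR (SD, n = 3 each), and AT5G59450 to 319.7 ± 47.6, against 165.5 ± 27.2. AT5G66770 fell to 39.1 ± 22.3 in UAS-NUC, against 77.9 ± 8.76 in SHR, and SCL21 to 104.2 ± 6.20, against 166.9 ± 23.5. In UAS-MGP 1 of the 8 was called higher and none lower (all probe sets 5.31% higher and 3.76% lower). It was AT1G63100, at 224.7 ± 36.7 in UAS-MGP and 89.1 ± 7.91 in SHR.

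AT3G46600 was called higher than in SHR in 5 lines, by 0.72 in UAS-BLJ, 1.13 in UAS-NUC, 0.94 in UAS-JKD, 0.80 in UAS-SCR and 1.32 in UAS-IME. SCL23 was called in 1 of these lines, UAS-NUC, where it was lower. In UAS-BLJ 1 GRAS gene was called higher and 1 lower, against 6.47% (higher) and 4.67% (lower) of all probe sets. In UAS-JKD it was 1 higher and 1 lower, against 23.4% higher and 22.8% lower. In UAS-SCR 2 were called higher and 1 lower (all probe sets 25.1% higher and 22.6% lower), and in UAS-IME 2 higher and none lower (13.2% higher and 7.94% lower). The medians of the 8 genes against SHR lay between -0.26 in UAS-BLJ and 0.26 in UAS-NUC.

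**Figure D3:**
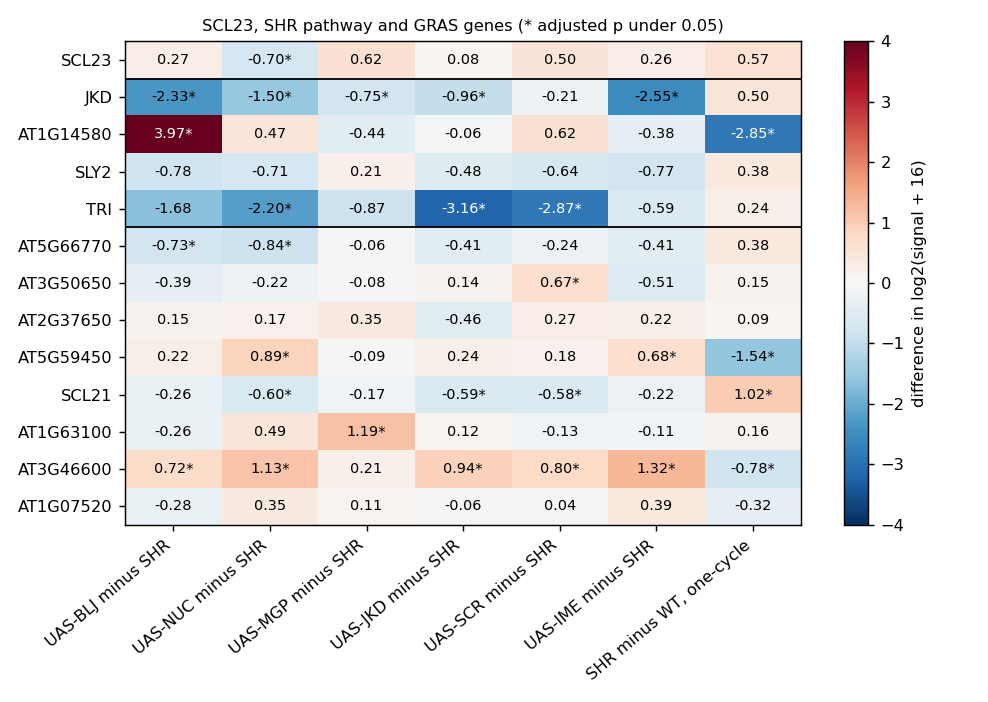
Differences in log2(signal + 16) of SCL23 (top row), 4 SHR pathway genes and 8 other GRAS genes against SHR in the 6 lines, and of SHR against WT in the last column. Colour gives the difference and an asterisk an adjusted p under 0.05; SCL23 has an asterisk in UAS-NUC alone, and AT3G46600 in 5 lines.

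The genes whose levels were most like SCL23 were taken by Pearson's r over the 24 one-cycle arrays, among 1963 probe sets of 1 gene that varied between the groups. Varied meant an SD of at least 0.5 over the group means. The arrays share 8 group means, and r is given as a description. The highest were AT5G50350 (0.82), AT5G41685 (0.80), AT4G02540 (0.79), AT4G16850 (0.77), AT5G41710 (0.77) and AT5G45500 (0.77). The lowest were AT3G14395 (-0.83), MSRB6 (-0.81), annotated as a methionine sulfoxide reductase, and AT4G03610 (-0.78). When r was taken over the 8 group means, 3 of the 6 highest were again among the highest 6.

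Their values in SHR and WT were wider apart than those of SCL23. The choice had itself required a spread between the group means. The width and the low values in WT and UAS-NUC come from the arrays used for the choice, so they only describe it. AT5G50350 had 159.4, 173.5 and 158.2 in SHR and 13.8, 30.6 and 23.6 in WT. In UAS-NUC it had 39.7, 45.3 and 32.3. UAS-NUC and WT were thus both low for it without overlap with SHR.

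The two-cycle arrays were not used in this choice. There AT4G02540 had 416.8, 401.6 and 577.2 in SHR and 16.5, 47.8 and 52.1 in WT, a difference of 3.19 (limma adjusted p = 0.00123). AT5G45500 had 328.7, 342.8 and 653.1 in SHR and 28.7, 12.6 and 4.8 in WT, a difference of 3.87 (limma adjusted p = 0.000954). Both rose in SHR under both protocols, with one-cycle differences of 2.59 for AT4G02540 and 2.76 for AT5G45500.

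AT5G41685 turned round, with 79.8, 129.5 and 151.9 in SHR and 375.8, 293.6 and 259.7 in WT in the two-cycle set (-1.28, limma adjusted p = 0.0145), against a one-cycle difference of 2.07. AT5G50350 (0.73, limma adjusted p = 0.108) and AT4G16850 (0.15, limma adjusted p = 0.761) were not called, and AT5G41710 was below the filter. Of the 3 genes of lowest r none was called in the two-cycle set.

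**Figure D4:**
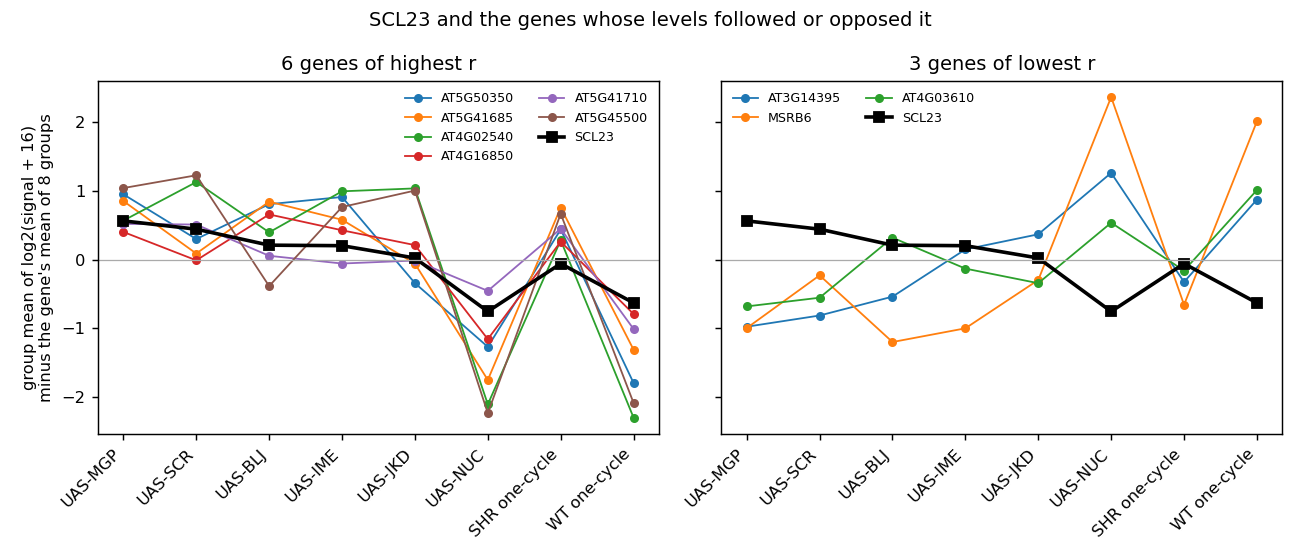
Group means of log2(signal + 16), less each gene's mean over the 8 one-cycle groups, for SCL23 (black) with the 6 genes of highest r (left) and the 3 of lowest r (right). UAS-NUC and WT lie below 0 for SCL23 and all 6 genes on the left, and above 0 for the 3 on the right.

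AT5G41685 and AT5G41710 lie 38 and 35 genes from SCL23 on chromosome 5. The genes around SCL23 were then listed, and a window of 50 places on either side and a limit of 0.6 on r were set after those values had been seen, so the following is a description without a test. Of 31 genes tested in the window, 9 (29.0%) had r of at least 0.6 with SCL23 over the 24 arrays. Elsewhere 230 of 8612 genes did (2.67%). AT5G41685 and AT5G41710, whose r led to this listing, are among the 9. Counted in places of protein-coding genes alone, the order used first, the counts were 8 of 34 in the window (23.5%) and 231 of 8609 elsewhere (2.68%).

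The gene scpl42, annotated as a serine carboxypeptidase-like gene, averaged 143.5 in SHR, 5.6 in WT and 22.0 in UAS-NUC. AT5G42280 averaged 32.3 in SHR, 5.7 in WT and 10.8 in UAS-NUC. The gene AT5G41810, at r = -0.67, ran the other way, with 65.0 in SHR, 912.5 in WT and 859.2 in UAS-NUC. In the two-cycle arrays scpl42 differed between SHR and WT by 1.12 (limma adjusted p = 0.0534) and AT5G41810 by -0.30 (limma adjusted p = 0.609). Differences between the lines in this stretch of chromosome 5 itself were not tested.

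**Figure D5:**
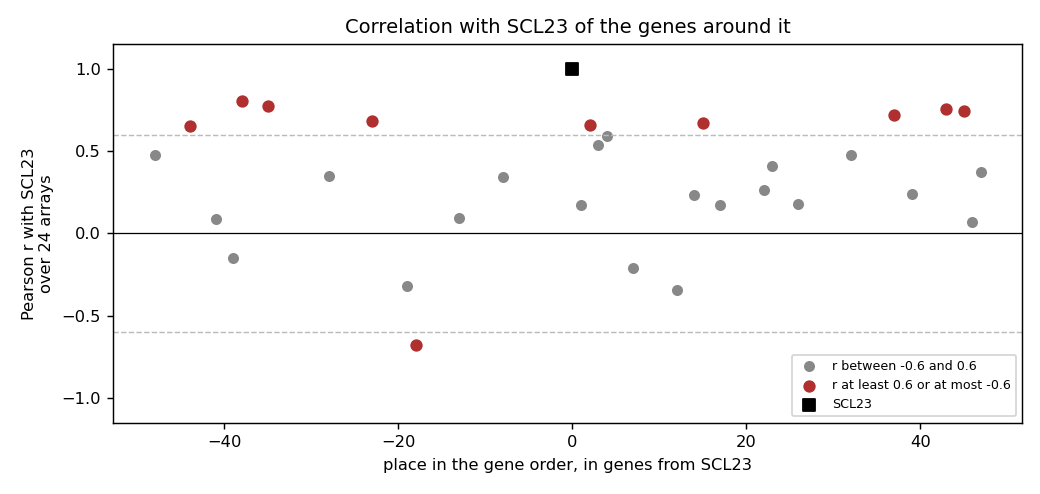
Pearson r with SCL23 over 24 arrays (vertical axis) of the genes within 50 places of it in the gene order (horizontal axis, in genes). Red points have r of at least 0.6 (9 genes) or at most -0.6 (1 gene), dashed lines mark these limits, and the square is SCL23.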

How the data were processed

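The authors deposited linear intensity values of ATH1 arrays. MAS5 made them, per the submitters' processing notes, which name no version. Samples were grouped by the labels. Of 22810 probe sets, 64 controls were left out. Names come from the probe annotation matched to the TAIR10.1 gene table, used for names and gene order alone (13436 probe sets matched). The test was limma's moderated one (version 3.58.1, R 4.3.3, variance trend) on log2(intensity + 16), adjusted by Benjamini-Hochberg over all probe sets kept and called under 0.05. A probe set entered a fit if it exceeded the fit's 40th percentile in a number of arrays equal to the smaller group's size. Quantile normalisation was used where array medians spanned over 0.5 (log2), which was so in meristems labelled BLJ against WT. The code was tested on simulated data. The number of arrays limits the precision.

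The members and lists were chosen with earlier results of these data known. The named genes are SCL23, called or illustrative members of both lists, and the 6 genes of highest and 3 of lowest r. The 9-, 15- and 21-array fits, the CO2 quantile setting, the leave-one-out of UAS-NUC against other lines and the genes around SCL23 were chosen after seeing the data. Alternatives were another pseudocount, normalisation, filter, trend, set of arrays, replicate block and left-out replicates.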

Additional observations from a re-analysis of the deposited data

How the results depend on the processing

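In all, 234 alternatives were computed for the SCL23 comparisons, 112 of them leaving out 1 array. The result was kept in 203, a call was lost in 18, a call was gained in 8 and the sign turned in 5. Kept meant the same direction and side of the threshold, save in the following. For the 12 alternatives of two-cycle SHR minus WT, which was not tested, it meant a shift smaller than the mean SD of the groups. For the 5 on the order of the groups it meant the same count of called neighbours. The order of the 8 groups kept 0 called neighbours under each of the 5 alternatives run on it. With a pseudocount of 64, UAS-MGP minus SHR (0.41, limma adjusted p = 0.0478) and UAS-SCR minus SHR (0.33, limma adjusted p = 0.0406) were called. In fits on the 6 arrays of the compared groups UAS-MGP minus SHR was called (0.62, limma adjusted p = 0.0492), while UAS-JKD minus WT (0.65, limma adjusted p = 0.135) and UAS-IME minus WT (0.83, limma adjusted p = 0.0584) were not. In the fit on 21 arrays without WT, chosen after seeing the data because WT spread most, UAS-MGP minus SHR (0.62) and UAS-SCR minus SHR (0.50) were called. Under quantile normalisation UAS-JKD minus SHR was -0.034 and UAS-JKD minus WT was 0.45 and not called (limma adjusted p = 0.141). CO2 cells minus WT meristems lost its call with a pseudocount of 1 (0.84, limma adjusted p = 0.0541), with no filter (0.62, limma adjusted p = 0.0779) and with the replicate block (0.61, limma adjusted p = 0.119). The causes were not tested.

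Leaving out 1 array, the differences ranged from 0.25 to 0.90 in SHR minus WT (one-cycle), -0.56 to -0.17 in the two-cycle set and -1.27 to -0.62 between the protocols. Against SHR the range was 0.16 to 0.37 in UAS-BLJ, -0.81 to -0.54 in UAS-NUC, 0.51 to 0.71 in UAS-MGP, -0.03 to 0.17 in UAS-JKD, 0.39 to 0.59 in UAS-SCR and 0.15 to 0.35 in UAS-IME. Against WT it was 0.52 to 1.17 in UAS-BLJ, -0.45 to 0.20 in UAS-NUC, 0.87 to 1.52 in UAS-MGP, 0.33 to 0.98 in UAS-JKD, 0.75 to 1.40 in UAS-SCR and 0.51 to 1.16 in UAS-IME. UAS-NUC minus WT turned to 0.04 without UAS-NUC replicate 1 and to 0.20 without WT replicate 2_2, and UAS-JKD minus SHR to -0.026 without SHR replicate 2_3. It was -0.0062 (without BLJ replicate 1) to 0.23 in BLJ minus WT meristems, 0.13 to 0.78 in CO2 cells minus WT ground tissue and 0.53 to 0.71 in CO2 cells minus WT meristems.

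Same-numbered arrays did not deviate together (correlations of deviations from -0.20 to 0.24), so the numbers were not taken to pair samples. With the replicate block one-cycle SHR minus WT was 0.57 (limma adjusted p = 0.0641), two-cycle SHR minus WT -0.37, and BLJ minus WT meristems was 0.22 (limma adjusted p = 0.841). Counts of called probe sets moved by over 1.5 times in 9 of the 18 comparisons. The reported count and the one farthest from it were 4122 and 2058 in two-cycle SHR minus WT, and against SHR 1756 and 3456 in UAS-BLJ, 6423 and 3494 in UAS-NUC, 1431 and 790 in UAS-MGP, 7524 and 4503 in UAS-SCR and 3333 and 1896 in UAS-IME. Against WT they were 3754 and 1607 in UAS-NUC and 5772 and 3692 in UAS-SCR. Meristems had 423 as reported, 2140 as deposited, 155 with no trend, 2849 with the block and 0 by limma without BLJ replicate 2, where 2747 had an unadjusted p under 0.05.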
